A study of Mus musculus with 26 samples.

Results

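Labelled RNA was chased in murine oligodendrocytes (OLs), the myelin-forming glia of the central nervous system, and its decay was followed over 6 h. The OL course comprised 10 of the 26 libraries of the series, from 2 replicates with 1 library each at 0, 1, 2, 4 and 6 h. All 9751 transcripts listed for OLs were described, out of 10104 listed for OLs or for their progenitors (OPCs). Of these, 8177 were also listed for OPCs and 1574 had no row in the OPC table. The OPC course of 15 libraries, from 3 replicates at the same times, was used only to show where OLs differ.

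Both cell types were cultured cells of strain 129S/SvEv. OPCs had been derived from epiblast stem cells and were kept in medium with bFGF and PDGFA. OLs were made from them in medium with noggin, IGF-1, cyclic AMP, NT3 and the thyroid hormone T3. All cells of both courses, 0 h included, had taken up 5-ethynyluridine (5-EU) for 24 h before uridine replaced it. 5-EU is a uridine analogue to which biotin can be coupled, so that RNA made during labelling can be pulled down on streptavidin. In OLs the label was added part way through differentiation, so that the chase began after a further 24 h in the same medium. OLs and some of the OPC replicates shared their starting cells, but the sources do not say which numbers belong together. The labelled OPC control without biotin was not analysed here, so unlabelled RNA that stuck to the beads was not subtracted.

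The half-life of an mRNA is set mainly by how fast its poly(A) tail is removed, after which the cap is taken off and the body is degraded from either end. Sequences in the 3′ untranslated region (3′ UTR), such as AU-rich elements, and the codons of the reading frame change that rate. Messages for transcription factors and signalling regulators are in many cells short-lived, whereas those for ribosomes, energy metabolism and abundant structural proteins are long-lived. OLs are known for very abundant mRNAs of myelin proteins, some of which travel into the processes before they are translated.

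Values are FPKM (fragments normalised to transcript length and to the reads of the library), scaled by the authors to labelled spike-in RNA. Series of 5 values below are given in the order 0, 1, 2, 4 and 6 h. Within a library from 1 h on, the same spike-in factor multiplies each transcript. The median transcript stood at 64.0%, 72.8%, 55.4% and 31.5% of its own 0 h level at 1, 2, 4 and 6 h in replicate 1, and at 95.5%, 62.8%, 55.0% and 36.6% in replicate 2. In replicate 1 the median was thus higher at 2 h than at 1 h. Read numbers are unknown, and the number of replicates limits the precision. No transcript was listed at 0 up to 2 h, whereas 220 and 398 were at 4 and 6 h in replicate 1, and 80 and 77 in replicate 2. Replicates are labelled as separate samples of 1 condition, and p-values rest on the scatter of these libraries around a straight line for each replicate, which may be technical.

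The OL label was checked against marker genes. Of 12 OL markers 11 were listed, and their summed level at 0 h was 6663 FPKM in replicate 1 and 3112 FPKM in replicate 2. Ermn was the missing one. All 9 progenitor markers were listed too, at 1567 and 1379 FPKM in sum. They include Olig1, Olig2 and Sox10, which are factors of the whole lineage, and Gpr17 of cells that commit to the OL fate. Their sum is therefore no measure of progenitors alone. Of 8 astrocyte markers 7 were listed, at 675 and 829 FPKM in sum, without Aqp4, and of 7 neuron markers 4 were listed, without Rbfox3, Snap25 and Stmn2. No marker of microglia, endothelial and mural cells, fibroblasts or pluripotent stem cells was listed. In these bulk samples fewer cells of a type and less RNA per cell cannot be told apart.

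On the spike-in scale most labelled mRNAs fell. With limma on log2(FPKM + 0.1), a slope over time and a term for each replicate, 6629 of 9751 transcripts (68.0%) fell and 178 (1.83%) rose, with an adjusted p below 0.05. A slope of -0.25 log2 units per h was the median. The number that rose was sensitive to single replicates, at 34 without replicate 1 and 105 without replicate 2, and to the last time point, at 61 without the 6 h libraries. Since 1 factor moves a whole library, transcripts were next compared with the median transcript of their library. Relative to that median, 1737 (17.8%) decayed faster and 2986 (30.6%) more slowly. Without replicate 2 the former number was 979, and without the 1 h libraries 999. Below, "faster" and "slower" mean past an adjusted p of 0.05 in this limma fit, and a relative slope is in log2 units per h with its SE, from 10 libraries of 2 replicates. Where a list is given with 0 members past the threshold in this limma fit or the spike-in fit of all 10 OL libraries, 0 also had an unadjusted p under 0.05 in that direction, which was not counted for other settings. When libraries were centred on their 75th percentile instead, the median relative slope of all transcripts moved from 0.010 to -0.080, with 3433 faster and 2002 slower, and each list median below moved down by the same amount. Across transcripts, relative slopes of both replicates correlated with a Spearman's rho of 0.709 (n = 9751 transcripts, which share libraries).

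**Figure D1:**
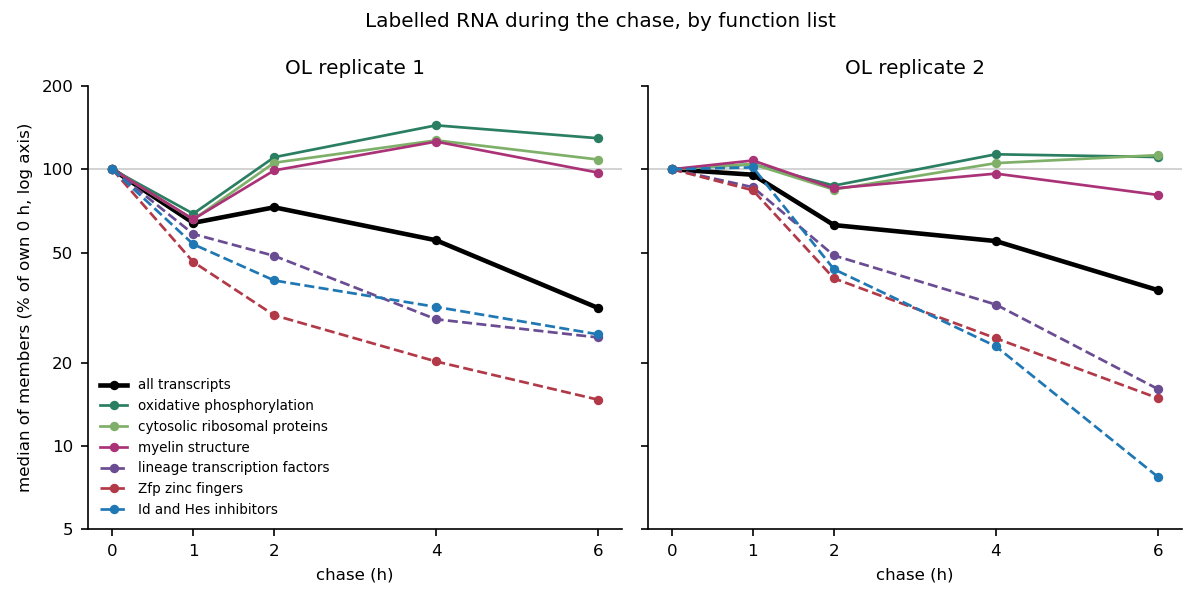
Median level of the members of 6 function lists and of all transcripts, as a percent of the own 0 h level (log axis), over 6 h of chase, with 1 panel for each OL replicate and points for single libraries. At 6 h the lists for oxidative phosphorylation, cytosolic ribosomal proteins and myelin lay between 80.8% and 129% and the transcription factor lists between 7.73% and 25.3%, below the median of all transcripts at 31.5% and 36.6%.

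Many myelin mRNAs decayed slowly. Of 30 genes for myelin structure 26 were listed. Of these 18 were slower than the median transcript and 2 were faster, against 30.6% and 17.8% of all transcripts. Their median relative slope was 0.26 (0.33 and 0.20 in replicates 1 and 2). At 6 h the median member stood at 97.3% and 80.8% of its 0 h level in replicates 1 and 2, and on the spike-in scale 7 members fell and 6 rose, against 68.0% and 1.83% of all transcripts. Mbp, the myelin basic protein whose mRNA is carried to the myelin sheath, read 3213, 2127, 3640.3, 5527 and 6543 FPKM in replicate 1 and 1295, 1407, 1172, 1613 and 2192 FPKM in replicate 2. It was higher at 6 h than at 0 h in both replicates, and its 0 h level was higher in replicate 1. Its relative slope was 0.44 ± 0.034 (limma, adjusted p = 1.43e-06). Sirt2, a deacetylase abundant in myelin, had the highest slope of the list, at 0.45 ± 0.028 (limma, adjusted p = 9.92e-07), and read 664, 451, 743, 1084 and 1370.5 FPKM in replicate 1 and 302, 375, 281, 428 and 576 FPKM in replicate 2. It rose after 2 h in both replicates.

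Mag, Cldn11, Mog, Cnp and Nfasc, further members of the myelin list, ended above their 0 h level in replicate 1, and all but Mog ended below it in replicate 2. Mag, the myelin-associated glycoprotein that contacts the axon, read 481, 283, 569, 766 and 766 FPKM in replicate 1 and 247, 196, 229.6, 261 and 197 FPKM in replicate 2. It rose in replicate 1 and ended a little below 0 h in replicate 2, so that both replicates differed in direction on the spike-in scale while both exceeded their library median. Cldn11, the tight junction protein between myelin layers, ended at 157% and 82.2% of 0 h, and Mog, a minor protein of the outer surface, at 114% and 101%. Cnp, the enzyme CNPase of the inner cytoplasmic channels, ended at 113% and 85.1%. Nfasc, which holds the paranodal junction to the axon, ended at 105% and 57.4%. All 5 of these were slower than the median transcript.

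Some genes of the same list decayed quickly. Tppp, which nucleates microtubules in OL processes, read 153, 80.2, 88.9, 51.6 and 23.3 FPKM in replicate 1 and 86.4, 62.6, 48.7, 25.3 and 9.55 FPKM in replicate 2. It fell at each step after 2 h, with a relative slope of -0.20 ± 0.035 (limma, adjusted p = 4.56e-04). Omg, the OL-myelin glycoprotein, read 29.8, 18.3, 16.7, 7.57 and 4.33 FPKM in replicate 1 and 27.3, 29.1, 15.3, 7.38 and 6.93 FPKM in replicate 2, with a slope of -0.16 ± 0.040 (limma, adjusted p = 0.0058). Both had half-lives, as the authors list them, between 2.16 and 2.56 h in the 2 replicates. Without replicate 1 Omg did not pass the test. Bcas1, a marker of OLs that are starting to myelinate, was abundant at 577 and 363 FPKM and did not pass the test, with a slope of 0.060 ± 0.028. Opalin and Gjb1, a membrane protein and a gap junction protein, did not pass it either, with slopes of -0.024 ± 0.067 and -0.17 ± 0.12.

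**Figure D2:**
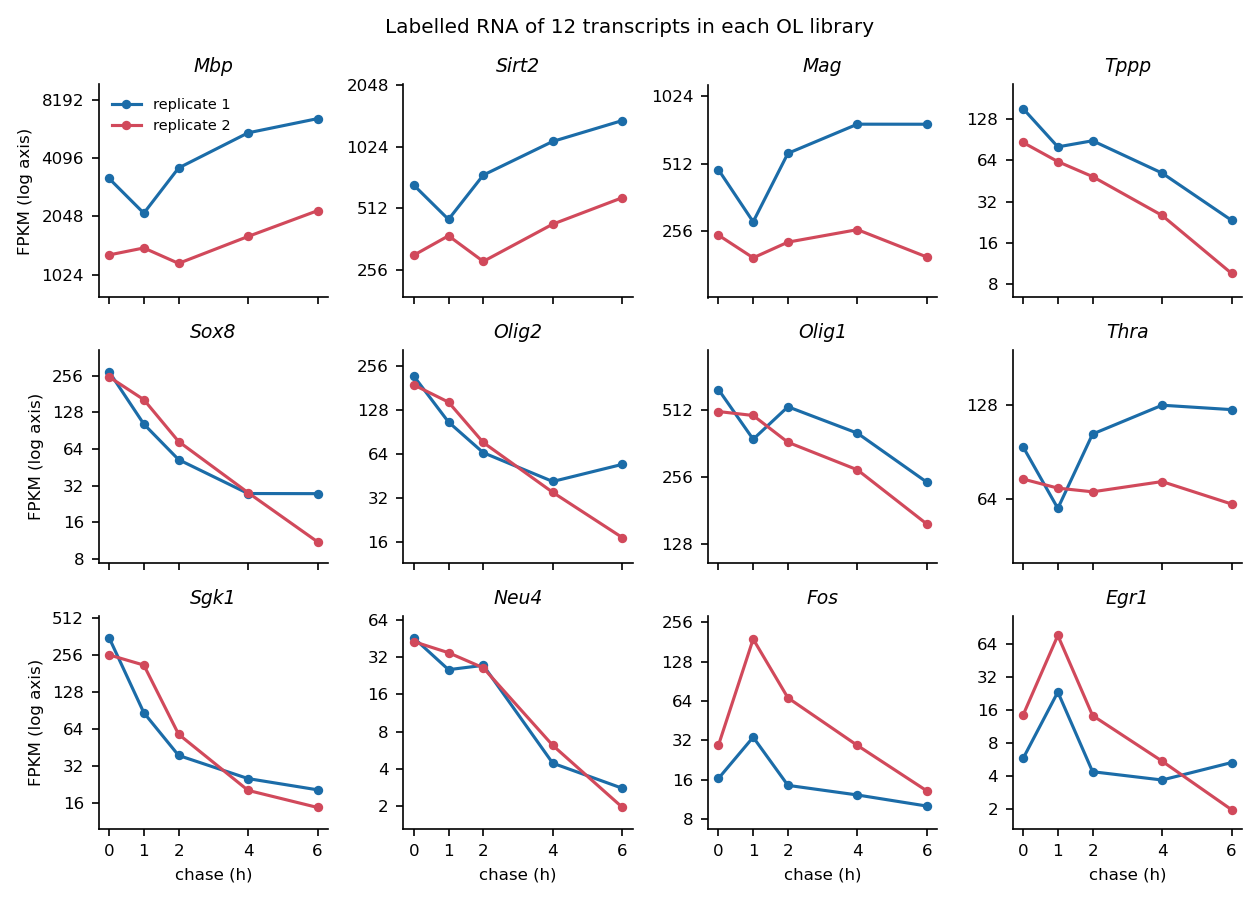
FPKM of 12 transcripts (log axis, a scale of its own in each panel) against hours of chase, with 1 line for each OL replicate. Mbp and Sirt2 ended above their 0 h level in both replicates, Sox8, Sgk1 and Neu4 fell to under 10% of it, and Fos and Egr1 were highest at 1 h.

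Lists of energy metabolism were among the slowest. All 74 listed nuclear genes of oxidative phosphorylation were slower than the median transcript, 16 rose on the spike-in scale and 0 fell in limma. Their median relative slope was 0.34 (0.38 and 0.29 in replicates 1 and 2). Atp5b, the catalytic subunit of ATP synthase, was the most abundant and read 651, 445, 693, 1060 and 909.9 FPKM in replicate 1 and 636, 628, 588, 784 and 709.8 FPKM in replicate 2. Ndufa1, a small subunit of complex I, had the highest slope, at 0.43 ± 0.023, and ended at 199.7% and 191% of 0 h. Sdhd, the membrane anchor of complex II, had the lowest, at 0.21 ± 0.037, and still passed as slower (limma, adjusted p = 6.50e-04). Its replicates differed, ending at 53.6% and 110.1%, and without replicate 2 it did not pass.

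Ribosomal protein mRNAs were slow as well. Of 82 listed transcripts for cytosolic ribosomal proteins 81 were slower, with a median relative slope of 0.31 (0.34 and 0.29 in replicates 1 and 2). Rpl8, the most abundant, read 678, 454, 706, 877 and 737 FPKM in replicate 1 and 616, 622, 510.0, 612 and 583 FPKM in replicate 2, and Rpl39 ended at 150.4% and 134% of 0 h. The exception was Rpl7l1, a ribosomal protein L7-like factor, which was faster with a slope of -0.12 ± 0.035 (limma, adjusted p = 0.0135) and read 28.9, 17.1, 13.7, 11.8 and 3.902 FPKM in replicate 1 and 34.6, 37.5, 19.8, 14.8 and 9.11 FPKM in replicate 2. It did not pass when either replicate was left out. Mitochondrial ribosomal proteins lay closer to the median, with 36 of 74 slower, 1 faster and a median of 0.12 (0.083 and 0.14 in replicates 1 and 2). The number slower was 30 without replicate 1 and 22 without replicate 2, and with the 75th percentile the list had 8 faster and 14 slower, with a median of 0.027. The faster one was Mrpl44, at -0.18 ± 0.057 (limma, adjusted p = 0.021). Messages for nucleolar ribosome assembly had 16 of 81 (19.8%) faster, near the share of all transcripts, and 8 slower. Their median was -0.054 (-0.11 and 0.014 in replicates 1 and 2), a sign that differed between the replicates, and the counts were 4 faster and 6 slower without replicate 1 and 20 faster and 7 slower without replicate 2. Ribosomal protein genes have many near-identical pseudogene copies, so reads may have been split among them.

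Glycolysis and the TCA cycle had 34 of 36 listed members slower and 0 faster in limma, with a median of 0.31 (0.32 and 0.26 in replicates 1 and 2), and 2 fell on the spike-in scale. Eno1, enolase, ended at 121% and 90.3% of 0 h. Hk2, an inducible hexokinase of low level, had the lowest slope, at -0.10 ± 0.083, and read 3.903, 1.84, 1.21, 0.956 and 0.434 FPKM in replicate 1 and 3.24, 1.62, 0.642, 0.729 and 0.756 FPKM in replicate 2. Lysosomal and V-ATPase genes had 46 of 52 slower and 2 faster, with a median of 0.30 (0.34 and 0.24 in replicates 1 and 2). Psap, the precursor of the saposins that help to degrade sphingolipids, read 311, 214, 376, 569.5 and 597 FPKM in replicate 1 and 342, 346, 314, 411 and 400.2 FPKM in replicate 2. Lamp1, an abundant lysosomal membrane protein, ended at 192% and 143%. Atp5b, Rpl8, Eno1 and Psap, the most abundant members of their lists, all ended at 90.3% of 0 h or more in both replicates. The lysosomal genes that were faster were Tfeb, the factor that switches on lysosome genes, and Lipa, an acid lipase, with slopes of -0.15 ± 0.048 and -0.14 ± 0.045, and neither passed without replicate 1.

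Messages for protein turnover and translation were on the slow side as well. Of 37 proteasome subunits 25 were slower and 0 faster (limma), with a median of 0.19 (0.16 and 0.20 in replicates 1 and 2), of 49 translation factors 33 were slower and 1 was faster, with a median of 0.15 (0.13 and 0.17 in replicates 1 and 2), and of 55 chaperones 32 were slower and 3 were faster, with a median of 0.12 (0.091 and 0.14 in replicates 1 and 2). Eef1a1, the elongation factor that brings tRNAs to the ribosome, read 1137, 772, 1213, 1378 and 1339.6 FPKM in replicate 1 and 950.1, 1123, 876, 1020.5 and 1210.5 FPKM in replicate 2. The faster ones were Eif1a, an initiation factor, with -0.25 ± 0.061, and the chaperones Dnajc2, Hsph1 and Dnajc14. Hsph1, a nucleotide exchange factor of Hsp70, read 19.9, 9.47, 8.27, 4.83 and 0.296 FPKM in replicate 1 and 22.8, 18.7, 10.9, 6.21 and 6.91 FPKM in replicate 2. Eif1a, Dnajc2 and Hsph1 did not pass without replicate 1. Of 37 aminoacyl-tRNA synthetases 18 were slower and 3 were faster, with a median of 0.095 (0.094 and 0.090 in replicates 1 and 2). The number faster was 0 without replicate 1 and 6 without replicate 2. With the 75th percentile synthetases had 7 faster and 10 slower and chaperones 9 and 19. Translation factors then had 4 and 23 and proteasome subunits 4 and 20. Lars2, the mitochondrial leucyl-tRNA synthetase, was listed at 2732, 3164, 5200.3, 7665 and 12435 FPKM in replicate 1 and 5039, 4143, 5699, 7363 and 3322 FPKM in replicate 2. Its replicates moved in opposite directions after 4 h, and whether reads from elsewhere were counted for it was not tested.

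Genes for the extracellular matrix were mostly slow, and those of the progenitor surface were mixed. Of 39 genes for extracellular matrix, integrins and their proteases 25 were slower and 1 was faster, with a median of 0.19 (0.22 and 0.15 in replicates 1 and 2), and the number slower was 14 without replicate 1 and 21 without replicate 2. Itgb1, the common beta chain of laminin receptors, ended at 111% and 109.7%. The faster one was Mmp16, a membrane-bound metalloproteinase, which read 40.3, 17.5, 15.4, 8.39 and 6.62 FPKM in replicate 1 and 40.3, 29.8, 16.99, 6.93 and 3.33 FPKM in replicate 2. Of 18 listed genes for the surface and matrix of progenitors 9 were slower and 5 were faster. Of these 18, 4 had no OPC row, Neu4 among them. Serpine2, a secreted protease inhibitor, rose from 357 to 542 FPKM in replicate 1 and from 385 to 553 FPKM in replicate 2. Neu4, a sialidase, read 45.7, 25.3, 27.5, 4.46 and 2.80 FPKM in replicate 1 and 42.7, 34.7, 26.2, 6.21 and 1.97 FPKM in replicate 2, and Gpr17, a receptor of cells that commit to the OL fate, read 323, 175, 185, 60.6 and 35.95 FPKM in replicate 1 and 299, 228, 171, 53.5 and 21.1 FPKM in replicate 2. Pdgfra, the receptor for the growth factor PDGF of the OPC medium, fell to 21.6% and 13.9% of 0 h. Epn2, an endocytic adaptor, and Xylt1, which starts the sugar chains of proteoglycans, were faster too, at -0.15 ± 0.034 and -0.13 ± 0.041. Pdgfra, Epn2 and Xylt1 did not pass without replicate 2.

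Transcription factors of the OL lineage lay at the other end of the range. Of 32 listed members 14 were faster, 3 were slower and 29 fell on the spike-in scale, with a median relative slope of -0.12 (-0.066 and -0.21 in replicates 1 and 2). The number faster was 16 without replicate 1, 4 without replicate 2 and 9 without the 1 h libraries, and the number slower without replicate 2 was 6, which turned the balance over. The median half-lives of all listed members, from the authors, were 1.83 and 2.16 h in replicates 1 and 2, against 4.15 and 4.05 h over all transcripts. Sox8, a SoxE factor that acts beside Sox10, read 277, 103, 52.4, 27.6 and 27.5 FPKM in replicate 1 and 251, 163, 73.9, 28.0 and 11.1 FPKM in replicate 2. Most of its loss had taken place by 2 h in both replicates. Sox10, which drives myelin genes, read 111, 53.2, 39.0, 21.6 and 23.8 FPKM in replicate 1 and 89.0, 79.6, 38.5, 17.99 and 8.76 FPKM in replicate 2. Olig2, needed to specify the lineage, read 218, 106, 65.2, 41.5 and 54.3 FPKM in replicate 1 and 189.6, 145, 76.6, 34.9 and 17.2 FPKM in replicate 2. It went back up between 4 and 6 h in replicate 1 only.

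Mycl, a Myc family factor, had the steepest slope of the list at -0.47 ± 0.054 (limma, adjusted p = 1.60e-05) and ended at 6.54% and 4.97% of 0 h. The other 13 that were faster included Sox2, Sox4, Sox5, Sox6, Sox9 and Sox11, Zeb2, Klf9 and Zfp488. Zfp488, a zinc finger factor that promotes OL differentiation, fell to 14.3% and 9.75% of 0 h, and Klf9, a direct target of the T3 in the medium, to 17.5% and 11.8%. Olig1, the neighbour and relative of Olig2, decayed like the median transcript with a slope of 0.026 ± 0.030 and read 635, 379.8, 531, 405 and 244 FPKM in replicate 1 and 506, 486, 368, 277 and 158 FPKM in replicate 2. Half-lives listed for Olig2 were 1.15 and 1.64 h and for Olig1 6 and 4.36 h. Myrf, the membrane-bound factor that turns on myelin genes, did not pass the test either, at 0.11 ± 0.045. The 3 that were slower were Nfix, Etv4 and Thra. Thra, a receptor of T3, read 94.2, 59.8, 104, 128 and 124 FPKM in replicate 1 and 74.3, 69.5, 67.6, 72.9 and 61.8 FPKM in replicate 2. At 6 h it was above its 0 h level in replicate 1 and below it in replicate 2.

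Helix-loop-helix factors of the Id, Hes and Hey families, most of which hold back differentiation, were next. Of 9 members 9 fell on the spike-in scale, 3 were faster than the median transcript and 0 were slower (limma), with a median relative slope of -0.20 (-0.014 and -0.36 in replicates 1 and 2). The number faster was 5 without replicate 1 and 1 without replicate 2, and 7 with the 75th percentile. Hes5, a Notch target, read 39.0, 19.5, 15.1, 8.87 and 9.87 FPKM in replicate 1 and 35.3, 34.9, 14.2, 4.39 and 3.39 FPKM in replicate 2. Id2, which binds E proteins, read 36.3, 19.4, 8.202, 8.82 and 12.3 FPKM in replicate 1 and 85.5, 101, 40.3, 15.6 and 6.59 FPKM in replicate 2, and did not pass the relative test (slope -0.20 ± 0.10; limma, adjusted p = 0.111). Id3 read 27.4, 10.3, 8.95, 12.5 and 7.80 FPKM in replicate 1 and 204, 167, 79.7, 45.1 and 25.6 FPKM in replicate 2. For Id1, Id2 and Id3 the 0 h level was higher in replicate 2 than in replicate 1, and the fall was steeper in replicate 2.

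To show what AU-rich sequence some of these short-lived regulators carry, the 3′ UTRs of the listed transcripts, taken from GENCODE M21 on GRCm38, were searched on the sense strand for TATTTAT, the DNA form of the core heptamer of AU-rich elements, with overlapping matches counted. Of 28 members of the lineage factor, Id and Hes, immediate early and ERK feedback lists with a half-life under 2 h in both replicates, 18 held at least 1 heptamer, as did 50 of all 91 members and 30.2% of all 9619 3′ UTRs. The sites below are from lineage factors, an Id factor, a kinase and an ERK inhibitor that are described here. Each is printed 5′ to 3′ on the mRNA's strand with the heptamer in capitals, with its position counted from the first base after the stop codon.
Sox8, chr17:25566703-25566731, - strand, base 613 of 1441: tgttgaagacgTATTTATgttctgttgtt
Sox10, chr15:79155013-79155041, - strand, base 908 of 1025: cgctgccccttTATTTATctccatagtcg
Olig2, chr16:91228592-91228620, + strand, base 1232 of 1306: gtgctaaataaTATTTATtacttgtttgg
Sox2, chr3:34651822-34651850, + strand, base 458 of 1086: cttttgtacagTATTTATcgagataaaca
Id2, chr12:25094355-25094383, - strand, base 212 of 783: tgtgataccgtTATTTATgagagactttc
Id2, chr12:25094106-25094134, - strand, base 461 of 783: tgctgtgtataTATTTATatataaatata
Sgk1, chr10:21999635-21999663, + strand, base 819 of 1076: aaaacgggcatTATTTATgttttttttcc
Spry2, chr14:105892092-105892120, - strand, base 694 of 856: agtgtaaagaaTATTTATttgaagtttta
Spry2, chr14:105892053-105892081, - strand, base 733 of 856: aaaaaaaagaaTATTTATtttaagaggca
Id2 and Spry2 held 2 each in 3′ UTRs of under 1000 bases, and the others held 1. A match is a description of the letters, and binding to it was not measured.

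Zinc finger factors named Zfp, the longest list, held the largest number of transcripts that were faster. By share (38.8%) other lists were above it, such as Zbtb and Klf/Sp factors (49.0%). Of 281 genes named Zfp, most of them DNA-binding factors, 109 were faster and 5 were slower, 266 fell on the spike-in scale and 0 rose (limma), with a median relative slope of -0.18 (-0.16 and -0.20 in replicates 1 and 2). The number faster was 97 without replicate 1, 41 without replicate 2 and 59 without the 1 h libraries. With a pseudocount of 1 it was 61, with a median of -0.068, and with the 75th percentile 173. Their median half-lives were 1.19 and 1.92 h, and 145 of the 281 (51.6%) were under 2 h in both replicates, against 1073 of 9751 transcripts (11%). Zfp740 was the most abundant and read 92.4, 51.9, 59.1, 24.1 and 12.5 FPKM in replicate 1 and 95.4, 83.8, 64.6, 36.7 and 12.5 FPKM in replicate 2. It was lower at 6 h than at 4 h and lower at 4 h than at 2 h in both replicates. Zfp58 had the lowest slope, at -0.53 ± 0.13, and was listed at 0 at 6 h in replicate 1. The slower ones were Zfp664, Zfp580, Zfp335, Zfp706 and Zfp423, with slopes from 0.15 to 0.26. Zbtb and Klf/Sp factors, other zinc finger families, had 24 of 49 faster and 0 slower (limma), with a median of -0.19 (-0.14 and -0.21 in replicates 1 and 2), and the number faster was 18 without replicate 1, 8 without replicate 2 and 12 without the 1 h libraries. Their median was -0.093 with a pseudocount of 1. Many Zfp genes are close copies of each other, so reads may have been shared between them.

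**Figure D3:**
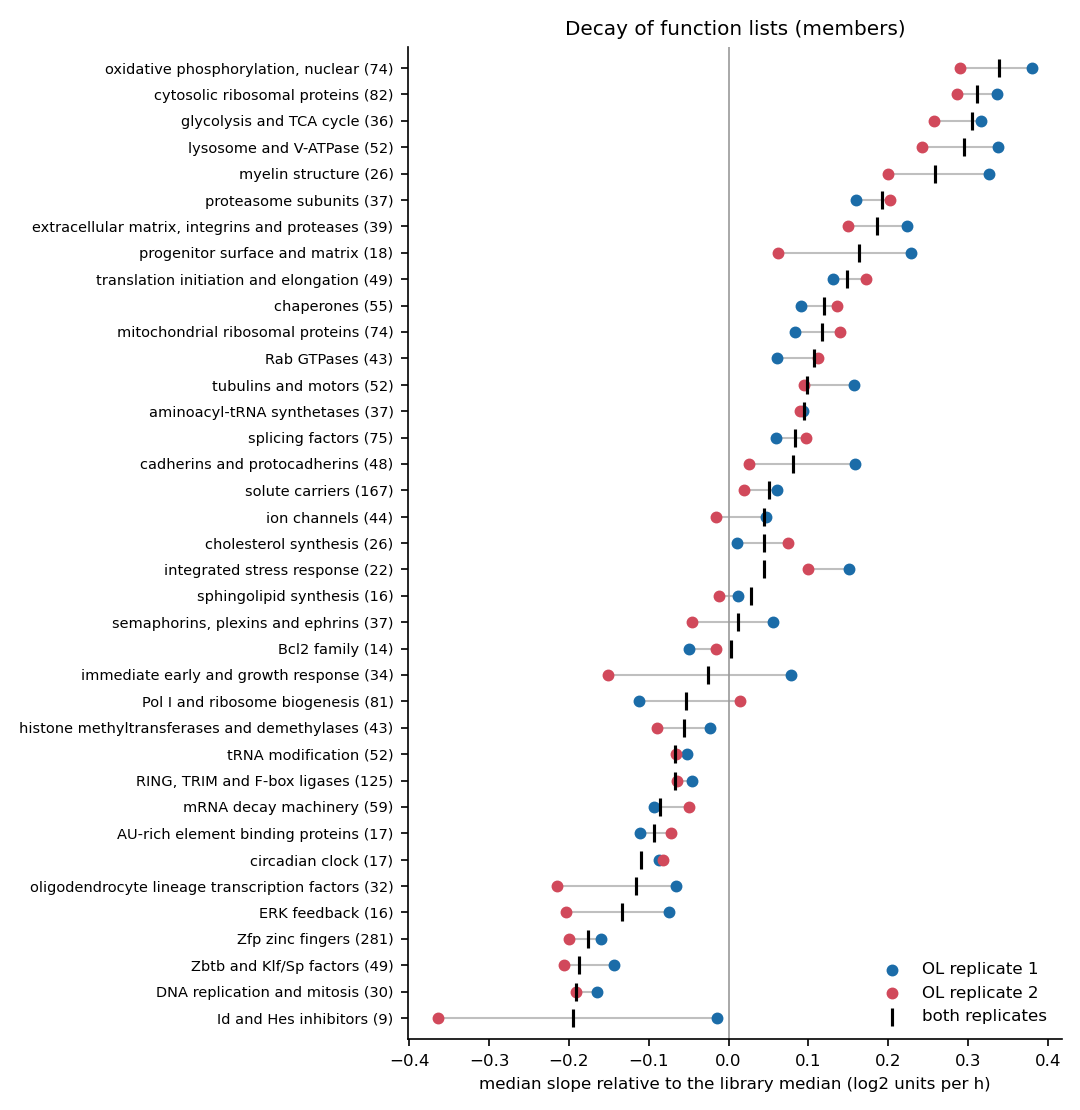
Median slope relative to the library median (log2 units per h) of the members of 37 function lists, in each OL replicate (points) and in the fit of both (tick), with the number of members in parentheses. Oxidative phosphorylation (0.34) and cytosolic ribosomal proteins (0.31) were highest, and Id and Hes inhibitors, DNA replication and mitosis and the zinc finger lists were lowest, with replicate 1 and replicate 2 far apart for Id and Hes inhibitors.

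Feedback inhibitors of the ERK pathway, which growth factors switch on, had 15 of 16 members falling on the spike-in scale, 7 faster and 0 slower (limma), with a median of -0.13 (-0.074 and -0.20 in replicates 1 and 2), and the number faster was 6 without replicate 1 and 1 without replicate 2. Dusp6, a phosphatase of ERK, read 35.7, 12.01, 6.48, 6.61 and 5.50 FPKM in replicate 1 and 54.9, 41.9, 13.3, 5.65 and 2.57 FPKM in replicate 2. Spred1, another inhibitor of Ras and the most abundant member, ended at 20.2% and 24.98% of 0 h. Spry2, which blocks receptor signalling to Ras and was named after its values were seen, read 52.7, 34.3, 20.1, 10.3 and 7.10 FPKM in replicate 1 and 86.1, 104, 63.8, 16.3 and 9.50 FPKM in replicate 2. It rose between 0 and 1 h in replicate 2 before it fell. Clock genes had 5 of 17 faster and 1 slower, with a median of -0.11 (-0.087 and -0.082 in replicates 1 and 2), and the number faster was 3 without replicate 1 and 1 without replicate 2. Their median was -0.031 with a pseudocount of 1, and with the 75th percentile 9 were faster and 0 were slower (limma). Nfil3, a repressor of the clock output, was the steepest at -0.28 ± 0.085, and the slower one was Nr1d1, a nuclear receptor, at 0.11 ± 0.042 (limma, adjusted p = 0.0473), which did not pass without replicate 1.

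Immediate early genes, which cells switch on within minutes of a stimulus, did not move as 1 group. Of 34 listed 7 were faster and 5 were slower, and the median slope was -0.026 (0.078 and -0.15 in replicates 1 and 2), so the replicates differed in sign. The number faster was 16 without replicate 1, 0 without replicate 2 and 2 without the 1 h libraries, and the number slower 1 without replicate 1, 7 without replicate 2 and 3 without the 1 h libraries. With the 75th percentile 10 were faster and 1 was slower. Sgk1, a kinase of the AKT family, was the most abundant and had the lowest slope, at -0.42 ± 0.082 (limma, adjusted p = 0.00109). It read 354, 86.6, 38.8, 25.2 and 20.4 FPKM in replicate 1 and 256, 212, 57.8, 20.2 and 14.6 FPKM in replicate 2. Its half-lives were 0.492 and 1.09 h. Rhob, Klf6, Klf10, Csrnp1, Plk3 and Zfp36l1 were faster too, whereas Jund, Gadd45b, Fosl2, Ier5l and Maff were slower.

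Labelled RNA of several immediate early genes was higher after 1 h of chase than before it. A level above 150% of the own 0 h level in both replicates, a limit set after the values were seen, was found in 12 of 9751 transcripts (0.123%), of which 6 belong to the 34 immediate early genes. Fos, a subunit of the AP-1 factor, read 16.4, 33.9, 14.5, 12.2 and 10.1 FPKM in replicate 1 and 29.4, 191, 67.8, 29.3 and 13.1 FPKM in replicate 2. Egr1, a zinc finger factor, read 5.79, 23.2, 4.38, 3.69 and 5.31 FPKM in replicate 1 and 14.4, 76.0, 14.2, 5.47 and 1.98 FPKM in replicate 2. Nr4a1, an orphan nuclear receptor, read 12.99, 25.99, 28.9, 15.01 and 6.79 FPKM in replicate 1 and 12.5, 54.9, 53.7, 56.5 and 22.2 FPKM in replicate 2. These 3 peaked at 1 or 2 h in replicate 1 and between 1 and 4 h in replicate 2, and the rise was larger in replicate 2. Junb, Fosb and Maff were the other 3, and Maff read 1.27, 3.04, 2.27, 4.33 and 2.49 FPKM in replicate 1 and 1.95, 7.76, 12.3, 17.6 and 10.9 FPKM in replicate 2. The 6 that are no immediate early genes were Pla2g12a, Ntpcr, Utp14a, Nr2c1, Fmnl3 and 9130023H24Rik, with mean 0 h levels of 2.35 to 7.92 FPKM. At the same time the median transcript stood at 64.0% and 95.5%, 3.99% and 41.4% of transcripts were above their own 0 h level in replicates 1 and 2, and 1.91% were in both. In OPCs Fos stood at 5.42, 3.20 and 10.3 FPKM at 0 h and at 5.84, 14.7 and 20.7 FPKM at 1 h in replicates 1, 2 and 3. There Nr4a1 went from 17.0, 11.7 and 14.7 FPKM to 33.9, 24.4 and 35.2 FPKM. Egr1 went from 12.7, 12.8 and 15.1 FPKM to 13.1, 15.6 and 34.5 FPKM. Junb and Maff were lower at 1 h than at 0 h in OPC replicate 2 and higher in OPC replicates 1 and 3. No half-life was listed for Fos, Fosb, Junb, Nr4a1 and Maff, which are among the 53 transcripts without a half-life.

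Cell cycle mRNAs were still labelled in these differentiating cells and decayed quickly. Of 46 genes for DNA replication and mitosis 30 were listed, all of them in both tables. Of these 15 were faster, 2 were slower and 28 fell on the spike-in scale, with a median of -0.19 (-0.16 and -0.19 in replicates 1 and 2). The number faster was 7 without replicate 1, 5 without replicate 2 and 5 without the 1 h libraries, and 6 without the replicate term. With a pseudocount of 1 it was 9, with a median of -0.093. Their summed 0 h level was 539.9 FPKM in replicate 1 and 263 FPKM in replicate 2. Top2a, the topoisomerase of dividing cells, read 32.2, 23.3, 16.9, 6.82 and 5.90 FPKM in replicate 1 and 13.9, 14.9, 4.74, 3.24 and 0.445 FPKM in replicate 2. Mcm6, a subunit of the replicative helicase, read 10.4, 3.82, 7.99, 0.874 and 0 FPKM in replicate 1 and 5.51, 4.81, 1.88, 0.197 and 0 FPKM in replicate 2. It was listed at 0 at 6 h in both replicates. The slower ones were Pcna, the sliding clamp, which also serves DNA repair, and Rrm1, the large subunit of ribonucleotide reductase, with slopes of 0.17 ± 0.036 and 0.093 ± 0.027, neither of which passed without replicate 2.

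Messages for RNA-binding proteins that act on decay had members on both sides. The list of AU-rich element binding proteins also held other RNA-binding proteins, such as Qk, Celf5 and Ybx1. Of its 17 members 9 were faster and 3 were slower, with a median of -0.094 (-0.11 and -0.072 in replicates 1 and 2). The number faster was 7 without replicate 1, 6 without replicate 2 and 5 without the 1 h libraries. Qk, the quaking protein that binds myelin mRNAs, was the most abundant and read 292, 190.2, 164, 87.7 and 56.8 FPKM in replicate 1 and 333, 286, 194, 117 and 68.0 FPKM in replicate 2. It fell at each step in both replicates. Elavl1 (HuR), which stabilises AU-rich messages, had a slope of -0.091 ± 0.029, and was faster (limma, adjusted p = 0.0197), as were Tia1 and the roquin genes Rc3h1 and Rc3h2, all 4 named after their values were seen. The slower ones were Elavl3, Celf5 and Ybx1. Ybx1, a cold shock domain protein that packages mRNA, read 32.0, 28.8, 31.6, 37.9 and 44.5 FPKM in replicate 1 and 33.2, 36.4, 16.4, 35.5 and 61.0 FPKM in replicate 2. Of 59 genes of the decay machinery 14 (23.7%) were faster, against 17.8% of all transcripts, and 8 were slower, with a median of -0.086 (-0.094 and -0.050 in replicates 1 and 2). Their median was -0.049 with a pseudocount of 1, and the list had 28 faster and 4 slower with the 75th percentile. Pnrc2, which links decapping to nonsense-mediated decay, was the most abundant and had a slope of -0.23 ± 0.036 (limma, adjusted p = 2.10e-04). Splicing factors had 37 of 75 slower and 8 faster, with a median of 0.084 (0.059 and 0.10 in replicates 1 and 2) that became -0.0072 when libraries were centred on the 75th percentile, and the counts were 1 faster and 34 slower without replicate 1, 8 faster and 24 slower without replicate 2 and 16 faster and 19 slower with the 75th percentile.

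Lipid synthesis, which myelin needs in large amounts, had members on both sides. Of 26 genes for cholesterol synthesis 9 (34.6%) were slower and 3 (11.5%) were faster, against 30.6% and 17.8% of all transcripts. Their median was 0.044 (0.010 and 0.074 in replicates 1 and 2) and became -0.047 with the 75th percentile. Those faster numbered 0 without replicate 1 and 3 without replicate 2, and with the 75th percentile the list had 10 faster and 5 slower. The faster ones were Insig1 and Insig2, which keep the SREBP factors in the endoplasmic reticulum, and Stard4, a sterol carrier. Insig1 read 159.9, 89.3, 95.3, 34.5 and 24.9 FPKM in replicate 1 and 129, 145, 123, 52.6 and 24.4 FPKM in replicate 2. Hmgcs1, which makes HMG-CoA, was the most abundant and read 550.0, 361, 493, 564 and 502 FPKM in replicate 1 and 394, 490.0, 362, 473 and 466 FPKM in replicate 2. In replicate 2 Insig1 was still near its 0 h level at 2 h, and in both replicates under 20% of it was left at 6 h. Of 16 genes for sphingolipid synthesis 3 were slower and 4 were faster, with a median of 0.028 (0.012 and -0.013 in replicates 1 and 2) that became -0.063 with the 75th percentile. The list had 2 faster and 4 slower without replicate 2, 1 faster and 4 slower without the 6 h libraries and 7 faster and 3 slower with the 75th percentile. Gal3st1, which adds the sulfate of the myelin lipid sulfatide, read 114, 60.6, 74, 29.2 and 9.60 FPKM in replicate 1 and 60.5, 54.8, 52.8, 19.9 and 5.88 FPKM in replicate 2. Ugcg, which makes glucosylceramide, had a slope of -0.41 ± 0.053, and Ugt8a, which makes galactosylceramide, had 0.057 ± 0.037 and did not pass the test. Fa2h, which hydroxylates the fatty acids of these lipids, was faster at -0.11 ± 0.035 (limma, adjusted p = 0.0191), and did not pass without replicate 2.

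In the integrated stress response, a programme driven by the factor Atf4, 10 of 22 members were slower and 3 were faster, with a median of 0.044 (0.15 and 0.10 in replicates 1 and 2) that became -0.047 with the 75th percentile. The median was 0.13 with at least 5 FPKM at 0 h and 0.10 with a pseudocount of 1, and the number faster was 3 without replicate 1 and 1 without replicate 2. The slower ones included the serine synthesis genes Phgdh and Psat1, and Phgdh ended at 163% and 97.3% of 0 h. The faster ones were Trib3, a pseudokinase, Vldlr, a lipoprotein receptor, and Ppp1r15b, which restores translation. In the Bcl2 family of apoptosis regulators 3 of 14 (21.4%) were faster, namely Bmf, Bcl2l11 and Bcl2l1, and 3 (21.4%) were slower. Of all transcripts 17.8% were faster and 30.6% slower. The number of the family that was faster was 2 without replicate 1 and 1 without replicate 2. With the 75th percentile the family had 7 faster and 1 slower. Bmf, which promotes cell death, fell to 8.37% and 5.94% of 0 h, whereas Bax, an effector of mitochondrial permeabilisation, stood at 99.8% and 82.7%. Of 125 RING, TRIM and F-box ubiquitin ligases 35 were faster and 21 were slower, with a median of -0.068 (-0.046 and -0.064 in replicates 1 and 2), and the counts were 31 faster and 16 slower without replicate 1, 23 faster and 12 slower without replicate 2 and 68 faster and 10 slower with the 75th percentile. Rnf187 was their most abundant member and was slower at 0.22 ± 0.037.

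Solute carriers and ion channels lay near the median. Of 167 solute carriers 53 were slower and 31 were faster, with a median of 0.050 (0.060 and 0.019 in replicates 1 and 2), and of 44 ion channels 11 were slower and 6 were faster, with a median of 0.045 (0.047 and -0.016 in replicates 1 and 2). The number of solute carriers that were faster was 15 without replicate 1 and 17 without replicate 2, and 17 with a pseudocount of 1. Ion channels had 4 faster and 5 slower without replicate 1. Both medians turned negative with the 75th percentile, where solute carriers had 51 faster and 39 slower and ion channels 12 faster and 5 slower, at -0.040 and -0.046. Kcna1, a potassium channel of axons and OLs, was the most abundant channel and fell to 18.7% and 10.5% of 0 h. Of 52 tubulins and motors 28 were slower and 7 were faster, with a median of 0.10 (0.16 and 0.095 in replicates 1 and 2), of 43 Rab GTPases 22 and 6, with a median of 0.11 (0.061 and 0.11 in replicates 1 and 2), and of 48 cadherins and protocadherins 17 and 3, with a median of 0.081 (0.16 and 0.026 in replicates 1 and 2). The cadherins that were slower (35.4%) were near the 30.6% of all transcripts. With the 75th percentile these medians were 0.0079, 0.016 and -0.010, with 11 faster and 23 slower, 13 faster and 15 slower and 7 faster and 9 slower. Without replicate 1 the cadherins that were slower numbered 8, and the tubulins and motors that were faster 2. Tuba1a, the main alpha tubulin of young neural cells, read 1934, 1120.3, 1887, 1848 and 1195 FPKM in replicate 1 and 1686, 1808, 1626, 1479.7 and 1163 FPKM in replicate 2. It kept about as much in replicate 1 as in replicate 2. Of 52 tRNA modification genes 7 were faster and 3 were slower, with a median of -0.067 (-0.052 and -0.065 in replicates 1 and 2), which was -0.033 with a pseudocount of 1. The counts were 25 faster and 2 slower with the 75th percentile and 12 faster and 8 slower without the 6 h libraries. Of 43 histone methyltransferases and demethylases 7 were faster and 4 were slower, with a median of -0.056 (-0.023 and -0.090 in replicates 1 and 2). This balance turned over between replicates, with 7 faster and 1 slower without replicate 1 but 3 faster and 7 slower without replicate 2, and was 23 faster and 2 slower with the 75th percentile and 16 faster and 4 slower without the 6 h libraries. Semaphorins, plexins and ephrins had 6 of 37 slower and 3 faster, but 4 faster and 4 slower without replicate 1, 1 faster and 8 slower without replicate 2, 12 faster and 5 slower with the 75th percentile and 1 faster and 12 slower with a pseudocount of 1.

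OL transcripts without an OPC row had lower levels and shorter half-lives than the others. Their median level at 0 h was 5.30 FPKM, against 19.6 FPKM for transcripts in both tables. Of the 1574, 326 (20.7%) were faster and 210 (13.3%) were slower, and their median relative slope was -0.086 (-0.049 and -0.092 in replicates 1 and 2). For the 1223 of them never listed at 0 the median was -0.026. The median half-lives of all 1574 were 2.39 and 2.57 h, and 411 (26.1%) were under 2 h in both replicates, against 662 of 8177 (8.10%). Within bands of the 0 h level the same order was seen, with half-lives of 2.39 and 2.37 h against 3.19 and 3.10 h at 5 to 10 FPKM, and 2.25 and 2.71 h against 3.44 and 3.53 h at 10 to 20 FPKM. At 20 FPKM or more the medians were 6 and 5.17 h against 6 and 6 h. The authors listed transcripts only from 1 FPKM at 0 h and with values at 1 and 2 h, so whether a missing row means a low level in OPCs or a loss by 1 or 2 h cannot be told apart here. Of the 1574, 131 were Zfp genes, and without them the median half-lives were 2.68 and 2.70 h.

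**Figure D4:**
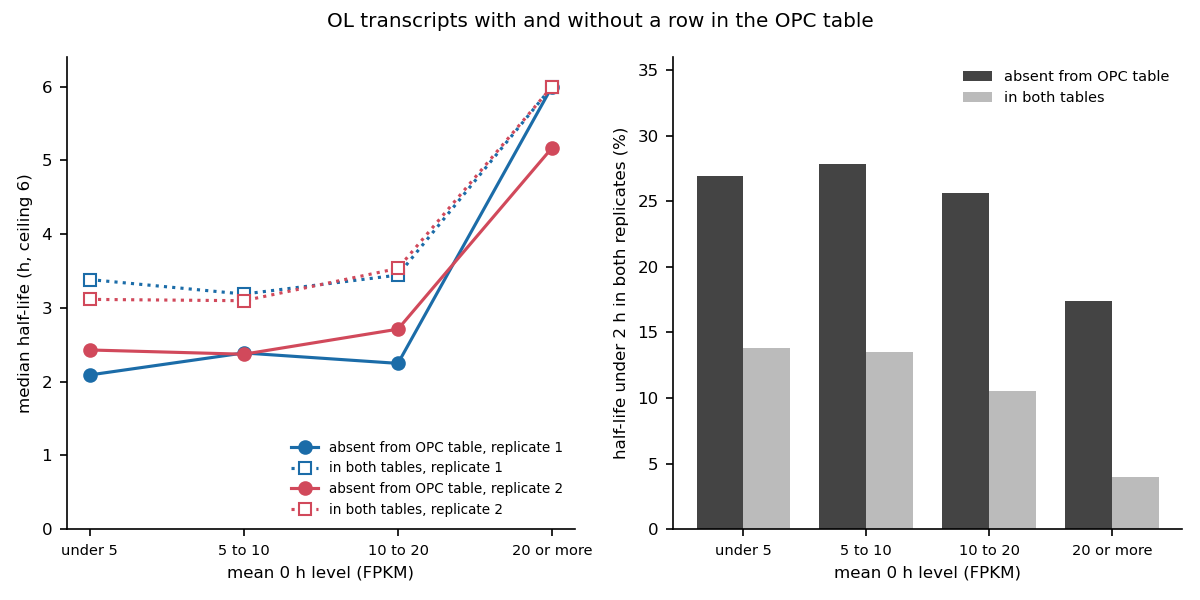
Left, median half-life listed by the authors (h, with a ceiling of 6 h) in bands of the mean 0 h level for OL transcripts without an OPC row and in both tables, in each replicate. Right, share of the same transcripts with a half-life under 2 h in both replicates. Below 20 FPKM the transcripts without an OPC row had the lower median in both replicates, and at 20 FPKM or more 17.4% of them were under 2 h against 3.99%.

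Of the 10 most abundant of these, 8 were slower than the median transcript and 2 were faster. Among them were Mag and Mt2, a metallothionein that binds zinc. Mt2 read 271, 223, 353, 524 and 424 FPKM in replicate 1 and 1173, 1154, 876, 1426 and 1357 FPKM in replicate 2. Its level was higher in replicate 2 at all times. Ptgds, a prostaglandin D synthase of OLs, read 275, 190.5, 315, 458 and 515 FPKM in replicate 1 and 294, 223, 210.0, 290.5 and 228 FPKM in replicate 2, and ended above 0 h in replicate 1 only. Enpp6, a choline phosphodiesterase of new OLs, ended at 86.2% and 139% of 0 h, Enpp2 (autotaxin), which makes lysophosphatidic acid, at 127% and 124%, and Abhd3, a phospholipase, at 141% and 134%. The faster ones were Tmem88b, a membrane protein, with 228, 138, 168, 114 and 43.1 FPKM in replicate 1 and 122, 115, 92.5, 47.4 and 18.4 FPKM in replicate 2, and Rasgef1b, an exchange factor for Ras-like GTPases, with 175, 85.4, 43.5, 31.8 and 29.8 FPKM in replicate 1 and 112, 102, 34.2, 20 and 13.2 FPKM in replicate 2. Neither of them passed without replicate 2. In the myelin list, 14 of 26 members had no OPC row.

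Among short-lived transcripts without an OPC row, chosen after the values were seen as the most abundant with half-lives under 2 h in both replicates, were Rasgef1b, Ripk2, Prickle1, Id2, Fam13c, Neu4, Rassf10, Pde4d, Kank1 and Zfp488. Ripk2, a kinase of innate immune signalling, read 85.2, 43.7, 27.2, 14.7 and 9.81 FPKM in replicate 1 and 59.9, 42.9, 19.0, 9.08 and 4.37 FPKM in replicate 2. Rassf10, a protein with a RAS association domain, read 51.6, 11.8, 5.35, 3.99 and 5.23 FPKM in replicate 1 and 29.5, 14.4, 6.09, 2.59 and 2.03 FPKM in replicate 2, and lost most of its label by 2 h in both replicates. The lowest slopes past the test were those of Styx, Magohb, Pdss1, Haus1, Ints9, Umad1, Glmn and Dtwd1, from -1.01 to -0.75, and all 8 were listed at 0 at 6 h in replicate 1. Of these Pdss1, Haus1 and Glmn did not pass without replicate 1, Umad1 without replicate 2 and Haus1 without the 6 h libraries. The highest were those of Clu, Gfap, H2-Ab1, Mgmt, Bricd5, Col16a1, Cyp4f13 and Pla2g7, from 0.46 to 0.59. Clu (clusterin), a secreted chaperone that astrocytes also make, read 1.86, 3.16, 7.57, 16.6 and 11.6 FPKM in replicate 1 and 10.9, 13.5, 6.15, 18.9 and 23.4 FPKM in replicate 2. H2-Ab1, a chain of class II histocompatibility molecules, read 2.38, 2.48, 2.80, 3.42 and 8.74 FPKM in replicate 1 and 3.73, 4.54, 13.9, 11.8 and 8.51 FPKM in replicate 2. Both were above 0 h at 6 h in both replicates. Bricd5 and Col16a1 did not pass without the 6 h libraries.

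Among all transcripts of at least 5 FPKM at 0 h in both replicates, the 15 highest relative slopes were those of Gfap, Serf1, Gnas, Gsta4, Tnfrsf12a, Rida, Itm2a, Sparc, Ppic, Mgst1, Selenop, Pla2g7, Rdh5, Col11a2 and Gm20594. They ran from 0.46 to 0.51, and 14 of the 15 rose on the spike-in scale. Serf1 and Rdh5 did not pass the relative test without the 6 h libraries. Gnas, the stimulatory G protein subunit, read 109, 86.8, 129, 203 and 240.3 FPKM in replicate 1 and 94.8, 119.8, 75.2, 125 and 276 FPKM in replicate 2. Sparc, a matrix glycoprotein of glia, read 70.9, 50.6, 92.6, 144 and 176 FPKM in replicate 1 and 89.7, 96.1, 84.5, 124 and 172 FPKM in replicate 2, and Selenop, a selenium carrier, read 45.7, 26.7, 44.7, 70.2 and 96.9 FPKM in replicate 1 and 63.9, 94.6, 69.6, 93.1 and 143 FPKM in replicate 2. All 3 were above their 0 h level at 4 and 6 h in both replicates. Mgst1 and Gsta4, glutathione transferases, ended at 229% and 187% and at 246% and 159%. Gfap, the intermediate filament of astrocytes, was at 6.86 and 8.12 FPKM at 0 h and at 20.00 and 19.6 FPKM at 6 h. All 7 listed astrocyte markers were slower than the median transcript, with a summed level of 675 and 829 FPKM at 0 h and 957 and 984 FPKM at 6 h. Their part in the slow transcripts was not tested.

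The 15 steepest were those of Styx, Magohb, Msh3, Mcm6, A430005L14Rik, Pdss1, Ints9, Glmn, Nudt22, Nme7, Msmp, Haus3, Zc3hc1, Exo5 and Znhit3, from -1.01 to -0.62. Each was listed at 0 at 6 h in at least 1 replicate, so their slopes depend on the pseudocount. Pdss1, Glmn, Haus3 and Znhit3 did not pass without replicate 1, Msmp without replicate 2 and without the 1 h libraries, Haus3 also without the 1 h libraries and with a pseudocount of 1, and Nudt22 without the 6 h libraries. Styx, a pseudophosphatase, read 7.02, 1.43, 9.32, 0 and 0 FPKM in replicate 1 and 16.8, 6.77, 5.25, 0 and 0 FPKM in replicate 2, and Magohb, a subunit of the exon junction complex, read 12.8, 7.06, 4.63, 0 and 0 FPKM in replicate 1 and 13.5, 5.67, 3.08, 3.46 and 0 FPKM in replicate 2. Both were listed at 0 at 6 h in both replicates. Of all transcripts 564 were listed at 0 in at least 1 OL library, of which 225 were faster. Without them 1592 of 9187 were faster and 3018 slower. Among transcripts of at least 20 FPKM at 0 h and never at 0, a choice made after the values were seen, Neu4, Mycl, Tbpl1, Zc3h11a and Tgfbr1 had the lowest slopes. Tgfbr1, the type I receptor for TGF-beta, read 25.1, 12.9, 8.07, 3.28 and 1.49 FPKM in replicate 1 and 25.1, 22.3, 11.1, 3.46 and 1.39 FPKM in replicate 2, and Skil, an inhibitor of its signalling, read 33.0, 18.5, 11.2, 2.87 and 1.96 FPKM in replicate 1 and 25.1, 26.3, 11.9, 4.99 and 2.22 FPKM in replicate 2. Both lost label at each step after 1 h in both replicates.

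The half-lives listed by the authors allowed the transcripts to be sorted into classes. A half-life under 2 h was listed for 2278 transcripts in replicate 1 and 1535 in replicate 2, and for 1073 in both, which is 47.1% of the former and 69.9% of the latter. The 6 h ceiling was reached by 3852 and 3499 transcripts and by 2798 in both. A 6 h level at or above the own 0 h level was found in 1073 transcripts of replicate 1, 900 of replicate 2 and 505 in both. With a limit of 1.5 h, 310 were in the short class. The most abundant of the short class, listed after the values were seen, were Hist1h1d, Gpr17, Sgk1, Sox8, Pim3, Trp53inp1, Olig2 and Peli1. Hist1h1d, a linker histone, read 378, 118, 134, 122 and 102 FPKM in replicate 1 and 340.5, 175, 79.9, 85.8 and 27.5 FPKM in replicate 2. Peli1, a ubiquitin ligase of immune signalling, read 243, 142, 102, 25.8 and 18.1 FPKM in replicate 1 and 146, 145, 74.8, 18.9 and 13.95 FPKM in replicate 2. In the short class the median level left at 6 h was 11.4% in replicate 1 and 10.7% in replicate 2, where the single exponential of the listed half-life gives 2.67% and 8.12%. The listed level was above that curve for 80.6% of them in replicate 1 and 63.7% in replicate 2.

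Several properties of the transcripts varied with the relative slope. Values here are Spearman's rho across transcripts in replicates 1 and 2, which share libraries and are not independent. The 0 h level had a rho of 0.273 and 0.340 (n = 9751), so abundant mRNAs tended to be slower. Longer 3′ UTRs and longer coding sequences went with faster decay, with -0.205 and -0.259 (n = 9619) and -0.128 and -0.259 (n = 9737). GC3, the G+C share at the last base of codons, had 0.284 and 0.0628, and the A+U share of the 3′ UTR had -0.231 and -0.0454, so that both differed between the replicates by more than the other features did. The number of exons had 0.0232 and 0.0466, and the span of the gene -0.137 and -0.129. The median 3′ UTR had 1568 bases in the short class, 722 at the ceiling and 581 in transcripts with no net fall.

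The AU-rich heptamer was more frequent in short-lived transcripts at each length of the 3′ UTR. It was found in 42.4% of 1054 short-lived, 33.4% of 5735 intermediate and 19.0% of 2777 slow transcripts, and in 13.7% of 502 with no net fall. Among 3′ UTRs of 500 to 1500 bases the shares were 30.4%, 26.1% and 18.01%, and among those of 1500 to 3000 bases 51.0%, 43.5% and 33.3%. Median half-lives in replicates 1 and 2 were 4.88 and 4.55 h with no heptamer, 3.34 and 3.596 h with 1, and 2.61 and 2.85 h with 4 or more (n = 126). The last group also had the longest 3′ UTRs, with a median of 3676 bases. Most short-lived transcripts held no heptamer.

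**Figure D5:**
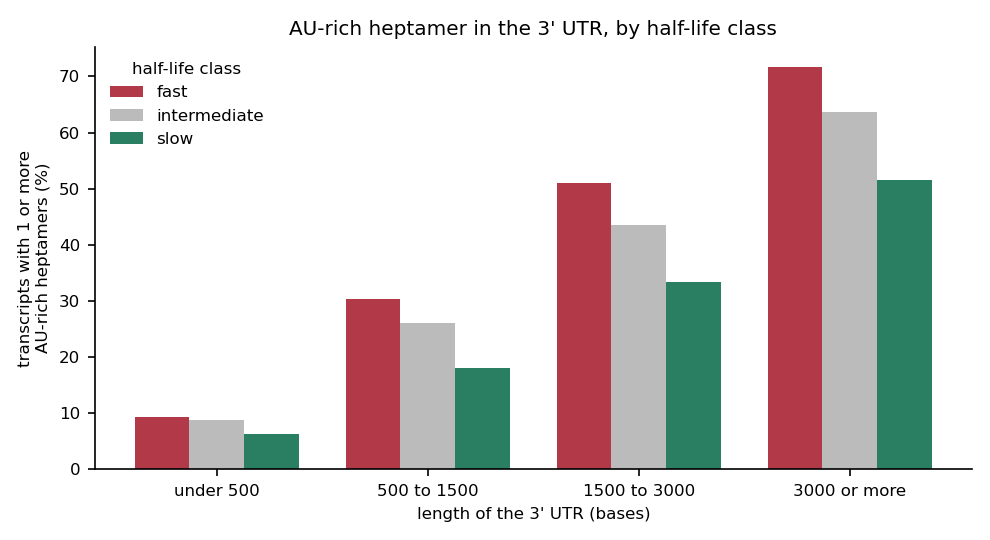
Share of transcripts (%) with at least 1 AU-rich heptamer in the 3′ UTR, in bands of 3′ UTR length, for transcripts with a half-life under 2 h in both replicates (fast), at the 6 h ceiling in both (slow) and the rest (intermediate). Shares rose with length in all classes, and in each band the fast class had the highest share, such as 51.0% against 33.3% in the slow class at 1500 to 3000 bases.

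To find where OL decay differs from OPC decay, slopes relative to the median of the 8177 transcripts in both tables were compared with a cell type by time term in limma. By that measure 1897 (23.2%) decayed faster in OLs and 660 (8.07%) more slowly. On the spike-in scale the split turned over, to 34 faster and 3004 slower, with a median difference of 0.22 log2 units per h. The counts also depended on single replicates, at 715 and 150 without OL replicate 2 and at 1362 and 184 without OL replicate 1. Without the 1 h libraries 265 were slower, and without the 6 h libraries 1253 were faster. Cytosolic ribosomal protein mRNAs were relatively faster in OLs for 81 of 82 members, oxidative phosphorylation for 70 of 73, and DNA replication and mitosis for 18 of 30, with median differences of -0.32, -0.28 and -0.28 log2 units per h, whereas on the spike-in scale these medians were -0.060, -0.028 and -0.021 with 1, 0 and 4 members faster in limma and 1 slower in each list. Oxidative phosphorylation and ribosomal proteins were above the library median in OLs all the same. For tRNA modification and ribosome biogenesis 8 of 41 and 11 of 71 were slower in OLs and 2 and 8 were faster, with median differences of 0.14 and 0.18. On the spike-in scale 24 and 40 of them were slower and 0 were faster in both lists (limma), with medians of 0.40 and 0.44. Of the lineage factors 5 of 27 were faster and 1 was slower, and of the immediate early genes 0 of 25 were faster and 4 were slower (limma). On the spike-in scale 0 of the 27 lineage factors were faster and 6 were slower (limma), against 34 and 3004 of all 8177 transcripts.

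The 6 lowest differences among transcripts of at least 5 FPKM in all replicates were those of Mcm6, Pafah1b3, Top2a, Pbk, Trim59 and Pclaf, and the 6 highest those of Schip1, Rgcc, Fdx1, Utp4, Polr1c and Clcc1. Top2a read 33.7, 39.5, 32.1, 68.0 and 16.4 FPKM in OPC replicate 1, 129.9, 103, 170.1, 75.9 and 44.2 FPKM in replicate 2 and 81.9, 85.1, 111, 109 and 42.3 FPKM in replicate 3. At 4 h it was above its 0 h level in 2 of the 3 OPC replicates and in no OL replicate. The difference was -0.70 ± 0.094 (limma, adjusted p = 2.15e-05). Schip1, which binds the tumour suppressor schwannomin, read 69.1, 46.8, 57.0, 50.8 and 16.2 FPKM in replicate 1 and 67.5, 78.0, 60.1, 65.4 and 46.7 FPKM in replicate 2. In OPCs it read 84.6, 57.4, 52.1, 3.67 and 0 FPKM, 68.4, 65.4, 66.1, 11.1 and 0 FPKM and 58.5, 50.7, 59.3, 21.7 and 0 FPKM in replicates 1, 2 and 3. All 6 of the highest were listed at 0 in all 3 OPC libraries of 6 h, as were 263 (39.8%) of the 660 that were slower in OLs, 1 of the 1897 that were faster and 475 (5.81%) of the 8177. OPC libraries of 6 h had 15.7% to 21.6% of their transcripts at 0. With the 5555 transcripts above 0 in all 25 libraries, 2008 were faster and 150 slower in OLs. That selection drops transcripts that fell to 0 in OPCs, so it lowers the number slower in OLs by construction.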

How the data were processed

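Labelled RNA of OLs and OPCs was pulled down after 0, 1, 2, 4 and 6 h of chase and sequenced. According to the submitters' processing notes, reads were aligned with HISAT2 2.1.0 and quantified with StringTie 1.3.5. The deposited values are FPKM of 1 coding transcript per gene, which the authors scaled to labelled spike-in RNA from 1 h on and filtered on at least 1 FPKM at 0 h. All 0 h columns are unscaled, so any level relative to 0 h depends on the spike-in factor of its library. Half-lives in hours were deposited by the authors, from a single exponential with a ceiling of 6 h. A refit by least absolute deviations came within 0.02 h for 98.2% and 99.3% of transcripts in replicates 1 and 2. Read depth is unknown.

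Slopes were fitted to log2(FPKM + 0.1) with limma 3.58.1 in R 4.3.3, with an intercept for each replicate, empirical Bayes with a mean trend, two-sided tests and Benjamini-Hochberg adjustment over all transcripts. A fold change on this scale understates changes of low transcripts that stay above 0. For those listed at 0 its size depends on the pseudocount. Styx, for instance, had a relative slope of -1.01 with 0.1 and -0.39 with 1. Relative slopes were fitted after the median of each library had been subtracted. Replicate numbers pair the libraries because the 5 libraries of 1 number form 1 chase in the labels, and deviations from the time-point means correlated at 0.154 to 0.521 within a replicate. The fits were tested on simulated data. Tables were made with Python 3.11.15, pandas 2.3.3, numpy 2.4.6, scipy 1.17.1 and matplotlib 3.10.9. 3′ UTRs were matched by transcript identifier to GENCODE M21 for all 9751 transcripts, whereas the authors used an earlier release on the same build, and no protein or promoter sequence was used here.

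The lists and members were chosen with earlier results of these data known. Named were the 15 lowest and 15 highest relative slopes past the test, with the same sign in both replicates and at least 5 FPKM at 0 h. Named from each list were the lowest, the highest and the most abundant member and those past the test against the direction of the list median, and from the myelin, lineage factor, Id and Hes and immediate early lists any member. Without an OPC row, the 10 most abundant, 8 lowest and 8 highest were named, and between cell types the 6 lowest and 6 highest differences. Alternatives were a pseudocount of 1, a minimum of 5 FPKM at 0 h, no replicate term, centring on the 75th percentile, 6 h against 0 h, omission of each replicate and of the 1 h or 6 h libraries, and, chosen after seeing the data, omission of transcripts listed at 0, centring of the lists on the 75th percentile and half-lives refitted without the 1 h libraries. Of the genes that meet these rules, 1 is not reported here.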

Additional observations from a re-analysis of the deposited data

Results flagged for a closer look

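For 12 transcripts the relative slope differed between OLs and OPCs in limma's cell type by time term, and these were the most extreme among transcripts of at least 5 FPKM at 0 h. OL minus OPC differences, in log2 units per h, were -0.78 for Mcm6, -0.74 for Pafah1b3, a subunit of an acetylhydrolase, -0.70 for Top2a, -0.58 for Pbk, a mitotic kinase, -0.55 for Trim59 and -0.54 for Pclaf, which binds Pcna. At the other end they were 1.09 for Schip1, 1.08 for Rgcc, a regulator of the cell cycle, 0.965 for Fdx1, the ferredoxin of mitochondria, 0.963 for Utp4, a factor of ribosome assembly, 0.953 for Polr1c, a subunit of RNA polymerases I and III, and 0.926 for Clcc1. The last 6 were listed at 0 in all 3 OPC libraries of 6 h, so their size depends on the pseudocount. Without the 6 h libraries Schip1, Fdx1, Clcc1, Pafah1b3 and Trim59 did not pass, and without OL replicate 2 Schip1, Fdx1 and Trim59 did not. Pafah1b3 did not pass on the spike-in scale, without the 1 h libraries, without OL replicate 1 or without OPC replicate 3, and Mcm6 did not pass with a pseudocount of 1.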

How the results depend on the processing

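The number of transcripts that rose on the spike-in scale was 61 without the 6 h libraries, 43 for 6 h against 0 h and 34 to 105 with 1 replicate left out. The number faster than the median transcript was 999 without the 1 h libraries, 1098 for 6 h against 0 h, 3433 with the 75th percentile, where 63.2% of calls were faster instead of 36.8%, and 979 to 1182 with 1 replicate left out. Transcripts faster in OLs numbered 34 on the spike-in scale (1.12% of calls instead of 74.2%), 1253 without the 6 h libraries and 715 to 1975 with 1 replicate left out. Those slower in OLs numbered 338 with a pseudocount of 1 (84.6% of calls faster), 3004 on the spike-in scale, 265 without the 1 h libraries, 150 without transcripts listed at 0 and 150 to 837 with 1 replicate left out. The class under 1.5 h held 310 transcripts, and the median slope of transcripts without an OPC row ran from -0.092 to -0.049 with 1 replicate left out. Without the replicate block 6252 transcripts fell and 86 rose, 1395 were faster and 2667 slower, and 1665 and 582 were faster and slower in OLs than in OPCs. With the 75th percentile list medians turned to -0.063 for sphingolipid and -0.047 for cholesterol synthesis, -0.047 for the stress response, -0.088 for the Bcl2 family, -0.0072 for splicing factors, -0.040 for solute carriers, -0.046 for ion channels, -0.0098 for cadherins and -0.079 for semaphorins. With 1 replicate left out they ran from -0.013 to 0.012 for sphingolipid synthesis, -0.15 to 0.078 for immediate early genes, -0.049 to -0.015 for the Bcl2 family, -0.11 to 0.014 for ribosome biogenesis, -0.016 to 0.047 for ion channels and -0.046 to 0.056 for semaphorins. Over all alternatives, 948 of the values of single called transcripts kept their side of the threshold, 123 lost it with the same direction, and 0 reversed in limma. A fit of 1 replicate has fewer samples by construction, and the cause of the other changes was not tested. With 2 replicates and no read numbers, small differences between transcripts were not detectable.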
